A study of Mus musculus with 16 samples.

Results

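Acetylated lysine 27 of histone H3 (H3K27ac) is a chromatin mark of promoters and enhancers in use. The regions described here carried the mark in the embryonic gut epithelium and in the adult stem cell and had no called peak in the enterocyte. Overlapping or adjoining peaks from 8 mouse libraries were joined into regions, and a region counted as present in a library with at least 1 bp of peak inside it. Of 79482 merged regions, 3491 were present in both libraries of E12.5, of E14.5 (E, embryonic day) and of Lgr5-positive intestinal stem cells (ISC) and in neither enterocyte library. The regions were thus selected on the peak calls themselves, and their absence from the enterocyte lists is not a result.

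In the small intestine, stem cells at the crypt base carry the receptor Lgr5 and divide throughout life. Their daughters leave the crypt and most become enterocytes, the absorptive cells of the villus, which no longer divide. Regulatory elements used by dividing progenitors can be shut as this happens, and enhancers of the embryonic gut can be shut earlier, on the way to the adult stem cell.

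Chromatin immunoprecipitation and sequencing was done on sorted small-intestinal epithelium of mice of a mixed C57BL/6 and CD1 background, with 2 libraries for each of 4 groups. E12.5 and E14.5 cells were positive for the epithelial surface protein EpCAM and negative for the leukocyte marker CD45 and the endothelial marker CD31. Their sex and genotype are not given in the sources used here. ISC and enterocytes came from Lgr5EGFP-Cre-ERT males at postnatal day 60, in which green fluorescent protein is made from the Lgr5 locus. ISC were sorted for high green fluorescence, and enterocytes with the EpCAM-positive, CD45-negative and CD31-negative gate, which other epithelial cells of the villus also pass. The series calls each pair of libraries biological duplicates, and each library had its own input, which entered only through the peak calls. The labels of the cells could not be checked against marker genes, because no annotation of the build of the files, mm9, was used here. For the same reason positions stand in place of gene names, and no sequence is shown.

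Depth per ChIP library ran from 34.6 M tags in enterocytes replicate 2 to 54.6 M in E14.5 replicate 2, with 42.2 M in enterocytes replicate 1. From these tags 35614 to 52510 peaks per library had been called. They covered 43.6 and 59.99 Mb at E12.5, 65.1 and 56.9 Mb at E14.5, 51.2 and 76.1 Mb in ISC, and 38.8 and 38.8 Mb in enterocytes. The enterocyte lists were the shortest, with 36439 and 35614 peaks. In bulk material, fewer cells carrying a mark and less of the mark in each cell cannot be told apart, and a region without a peak is one below the caller's threshold.

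The 3491 regions were of moderate size and strength. Their median length was 1976 bp (quartiles 1291 and 2971 bp, range 371 to 25944 bp), against 2871 bp for the 12282 regions present in all libraries of all 4 groups and 1454 bp for the 4035 regions of the embryonic stages alone. Only 223 of them (6.39%) reached 5 kb, against 19.7% of the regions of all 4 groups. The length covered by peaks had a median of 995 and 1449 bp in the E12.5 libraries, 1512 and 1327 bp at E14.5, and 721 and 1313 bp in ISC. ISC replicate 1 was the lowest of the 6 libraries and ISC replicate 2 lay among the embryonic ones, so the groups overlapped. The ISC medians averaged 1017 ± 419 bp (SD, n = 2) and the embryonic ones 1321 ± 230 bp (SD, n = 4), as deposited and not scaled to the library. With 2 libraries against 4 an exact two-sided permutation test cannot give a p below 0.0667, so its p of 0.267 says nothing for or against a difference. Together the regions made up 11.1 and 10.7% of the covered length at E12.5, 10.1 and 10.3% at E14.5, and 7.24 and 7.56% in ISC. Both ISC shares lay below all 4 embryonic shares.

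**Figure D1:**
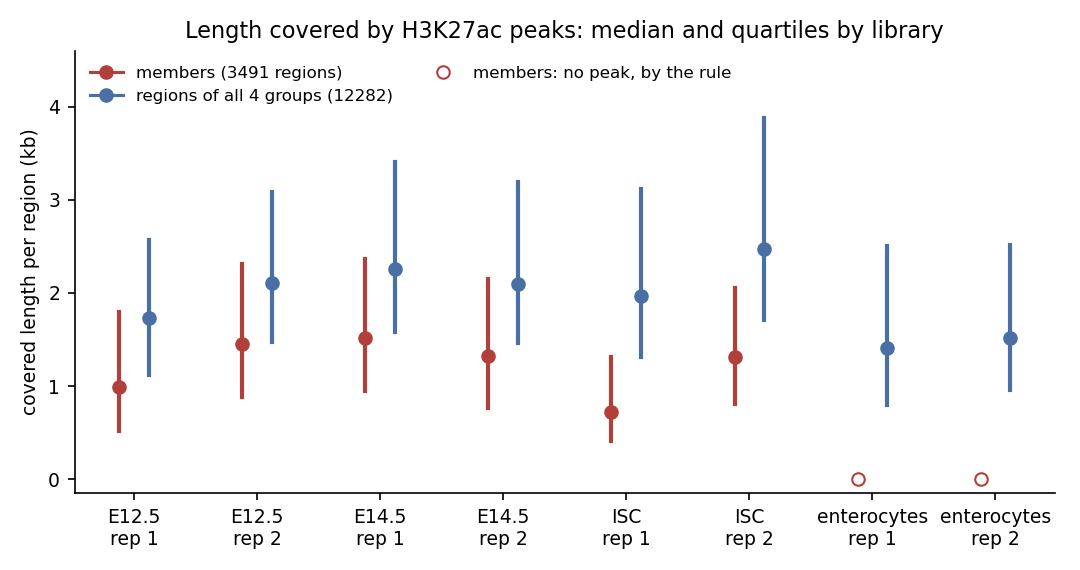
Length covered by H3K27ac peaks per region (kb, y axis) in each of the 8 libraries (x axis); points are medians and lines run between the quartiles over regions, for the regions off in enterocytes (red) and the regions of all 4 groups (blue). Open circles stand for the absence of peaks that defines the red set. The red medians lie below the blue ones in each of the 6 libraries, and ISC replicate 1 has the lowest red median, 721 bp.

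Within each list the regions ranked in the middle. Their strongest peak had a median percentile of −log10 q, the authors' significance score, of 57.5 and 66.4 in the E12.5 lists, 67.3 and 63.3 in the E14.5 lists, and 45.8 and 60.6 in the ISC lists. Regions of all 4 groups stood at 82.9 to 87.6 in the same lists. The fold enrichment over the local background, also the authors', had a median of 5.70 and 6.66 in the regions at E12.5, 8.70 and 7.11 at E14.5, and 4.79 and 7.58 in ISC. These are ranks and scores within a list and show no change between lists.

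The weaker a region was in the 6 lists, the more often it was off in enterocytes. There were 17114 regions present in all 6 libraries of E12.5, E14.5 and ISC, and 20.4% of them were the regions described here. These 17114 were split into 10 groups of equal size by their mean percentile in the 6 lists. In the weakest group 1125 of 1712 had no enterocyte peak (65.7%), and in the fifth 267 of 1711 had none (15.6%). In the strongest 3 groups the counts were 9, 1 and 1. At or above the 75th percentile in all 6 lists, 48 of 7245 regions were off in enterocytes, and at or above the 95th percentile none of 628 was. These shares rest on the rule that chose the regions and were not tested, nor was the part of the caller's threshold in them.

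**Figure D2:**
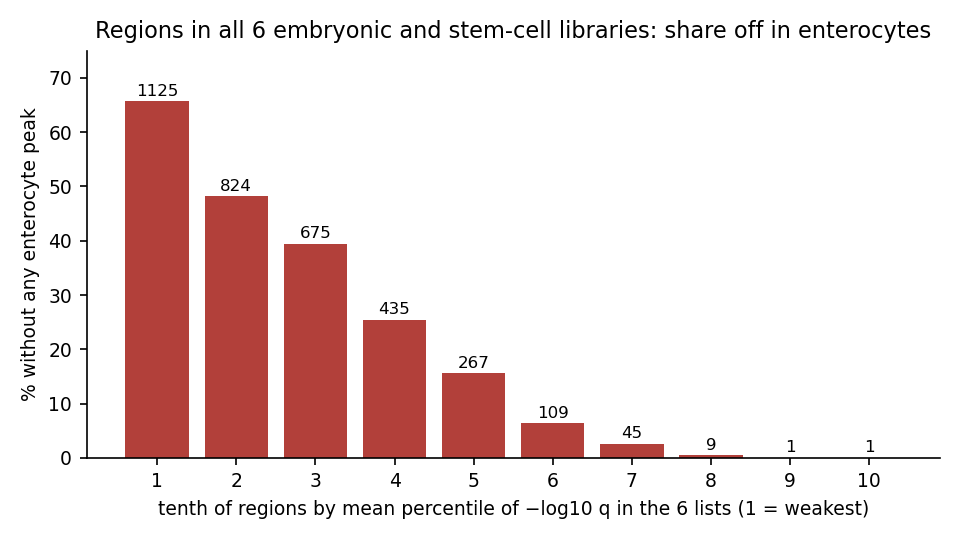
Regions present in all 6 embryonic and stem-cell libraries, split into 10 groups of equal size by the mean percentile of −log10 q of their strongest peak (x axis, 1 is the weakest); bars give the percentage without any enterocyte peak and the numbers on them count such regions. The share is 65.7% in the weakest group and 1 region remains in each of the 2 strongest.

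The 2 regions in the 2 strongest groups, picked out after their values were seen, were strong in every embryonic and stem-cell library. The region on chromosome 5 from 77378638 to 77384679 had peaks over 3.57 and 4.06 kb in E12.5 libraries, 5.47 and 5.10 kb in E14.5 libraries, and 2.89 and 3.66 kb in ISC. Its percentile was at least 91.7 in each of the 6 lists, and it was the only one of the 3491 above the 90th percentile throughout. The region on chromosome 6 from 29684755 to 29687807 had 2.66 and 2.93 kb in E12.5 libraries, 2.59 and 2.58 kb in E14.5 libraries, and 1.49 and 1.92 kb in ISC, with a lowest percentile of 78.7, in ISC replicate 1. Both were covered over less length in both ISC libraries than in both E14.5 libraries.

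By the smallest covered length in any of the 6 libraries, the 6 longest of the regions were broad in every one of them. The first, on chromosome 11 from 83689979 to 83699949, was covered over 8.29 and 9.14 kb in E12.5 libraries, 8.66 and 7.84 kb in E14.5 libraries, and 7.37 and 8.88 kb in ISC, and the nearest enterocyte peak began 3.16 kb from its edge. The second, on chromosome 1 from 108479595 to 108489600, had 7.76 and 9.08 kb in E12.5 libraries, 9.41 and 8.87 kb in E14.5 libraries, and 7.37 and 9.67 kb in ISC, and lay 104 kb from any enterocyte peak. The third, on chromosome 17 from 48087586 to 48096890, had 8.46 and 9.15 kb in E12.5 libraries, 8.83 and 8.997 kb in E14.5 libraries, and 6.86 and 7.78 kb in ISC. In the first 2 of these the 3 groups overlapped, and in the third both ISC libraries lay below all embryonic ones.

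The fourth, on chromosome 1 from 67107408 to 67115515, had 6.18 and 7.36 kb in E12.5 libraries, 8.00 and 7.66 kb in E14.5 libraries, and 6.73 and 7.93 kb in ISC. The fifth, on chromosome 2 from 32745288 to 32757383, had 6.09 and 7.32 kb in E12.5 libraries, 10.9 and 10.4 kb in E14.5 libraries, and 9.12 and 10.8 kb in ISC, so that both E12.5 libraries were the lowest. The sixth, on chromosome 10 from 67813029 to 67820762, had 6.75 and 7.50 kb in E12.5 libraries, 6.49 and 6.56 kb in E14.5 libraries, and 6.00 and 6.50 kb in ISC. None of the 3 comparisons among E12.5, E14.5 and ISC passed the limma test in any of these 6 regions (adjusted p from 0.0579 to 1.0, and from 0.0858 to 1.0 with the 6 libraries of these groups alone).

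The rule set presence in E12.5, E14.5 and ISC but not the covered length among them. This was tested with limma on log2 of the covered length scaled to the library's total plus 500 bp. The test ran over 53123 merged regions with a peak in at least 2 libraries. A region is called at a Benjamini-Hochberg adjusted p under 0.05 over all of them. In ISC against E14.5, 1108 of the 3491 regions had less covered length (31.7%) and 204 had more (5.84%), and their median log2 change was −0.27. Over all regions tested, 19.7% were called lower and 16.1% higher, with a median of 0. Many of those lack a peak in 1 of the groups altogether, so the other 13623 regions present in all 6 libraries are the nearer comparison, with 829 lower (6.09%), 1004 higher (7.37%) and a median of −0.03. Each of these has an enterocyte peak and none of the 3491 does, and the part of that choice in the difference was not tested. By the deposited lengths alone, both ISC libraries lay below both E14.5 libraries in 1599 of the 3491 regions (45.8%, against 29.2% of all regions tested) and above them in 443 (12.7%, against 24.9%).

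The rule sets the regions to 0 in both enterocyte libraries, and this pair of zeros lowers their estimated spread in the 8-library fit, while the other regions of the 6 libraries mostly have no such zeros. A fit of the 6 libraries of E12.5, E14.5 and ISC alone is free of this. It gave 938 lower (26.9%) and 162 higher (4.64%) regions in ISC against E14.5. The other 13623 regions had 7.79% lower and 7.85% higher calls in that fit, and all regions tested 20.8% and 18.0%. Without scaling, the 8-library fit called 18.1% of the 3491 regions lower, near the 17.0% of all regions tested. It called 3.20% of the other 13623 regions lower. Calls of less covered length came to 673 without E14.5 replicate 1, where 12.1% of all regions tested were lower, to 627 without E14.5 replicate 2, where 13.04% were, and to 631 without scaling, where 17.0% were. Calls of more came to 109 without E14.5 replicate 2, where 12.9% of all were higher, to 124 without ISC replicate 1, where 8.98% were, and to 127 without scaling, where 14.9% were.

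**Figure D3:**
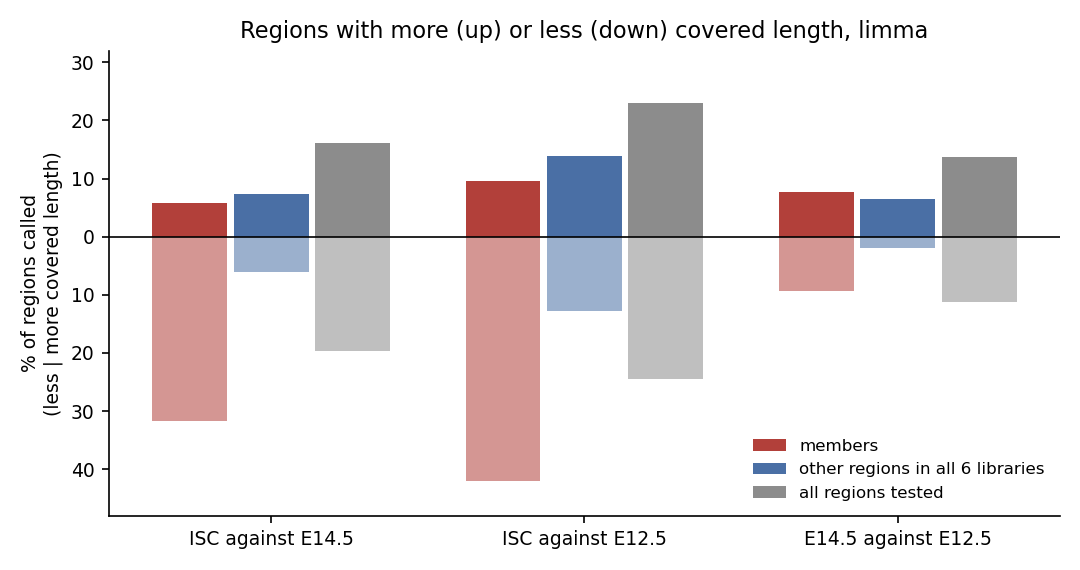
Percentage of regions called by limma with more (upward bars) or less (downward, paler bars) covered length in 3 comparisons (x axis), for the regions off in enterocytes (red), the other regions present in all 6 embryonic and stem-cell libraries (blue) and all regions tested (grey). In ISC against E14.5 the red bars reach 5.84% up and 31.7% down, and the blue ones 7.37% up and 6.09% down.

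Split into 4 groups of nearly equal size by strength, the regions had more lower than higher calls in ISC against E14.5 in each, in both fits. In the weakest group the 6-library fit called 96 of 873 lower (10.997%) and 55 higher (6.30%), and in the strongest 362 of 873 lower (41.5%) and 24 higher (2.75%). The other regions of the 6 libraries within the same limits of strength had 6.97% lower and 14.2% higher calls in the weakest group (n = 416) and 7.87% lower and 6.97% higher calls in the strongest (n = 9605). The sets share only these limits and were not matched for strength within them. The 8-library fit gave 14.55% and 47.4% lower in the weakest and strongest group of the regions, against 3.85% and 6.13% of the others.

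Every region given below for a rise or a drop was called in that comparison and had no overlap between its groups, and each of these calls held in the 6-library fit, with an adjusted p of at most 0.0154. The regions with the largest drops in ISC against E14.5 held only remnants in the stem cell. The region on chromosome 9 from 114449244 to 114475187, which is 25.9 kb long and the longest of all 3491, had 0.222 and 1.14 kb in ISC, against 25.2 and 24.9 kb in E14.5 libraries (log2 change −4.53 ± 0.29 (SE, n = 2 each), adjusted p = 0.000201 by limma, and 0.00115 in the 6-library fit). At E12.5 it had 22.3 and 24.2 kb, and its percentile was 99.6 to 99.97 in the embryonic lists and 1.43 and 43.1 in the ISC lists. The region on chromosome 6 from 49158247 to 49168129 had 0.357 and 0.953 kb in ISC, against 9.66 and 9.65 kb in E14.5 libraries, and 9.20 and 9.79 kb in E12.5 libraries. Only 11 bp separated it from a region of the embryonic stages alone, from 49168141 to 49179161, so its ISC peaks lay within a larger embryonic domain. The region on chromosome 9 from 62210626 to 62223975 had 0.310 and 1.90 kb in ISC, against 12.48 and 9.50 kb in E14.5 libraries, and 8.57 and 12.4 kb in E12.5 libraries. The groups were far apart in all 3 regions, and each is in the set only through its short ISC peaks.

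The regions with the largest rises in ISC against E14.5 had a low point at E14.5. On chromosome 7 from 107272190 to 107281966, peaks covered 9.41 and 9.72 kb in ISC, against 1.44 and 0.880 kb in E14.5 libraries (log2 change 2.55 ± 0.20 (SE, n = 2 each), adjusted p = 0.00038 by limma, and 0.0017 in the 6-library fit), and 2.09 and 3.16 kb in E12.5 libraries. This region lay 27 bp from a region of all 4 groups and 1.59 kb from an enterocyte peak. On chromosome 6 from 87336907 to 87344727, they covered 7.51 and 7.79 kb in ISC, against 1.24 and 0.750 kb in E14.5 libraries, and 2.35 and 3.38 kb in E12.5 libraries, with the nearest enterocyte peak 277 kb away. On chromosome 13 from 98880134 to 98886711, they covered 3.99 and 6.33 kb in ISC, against 0.847 and 0.253 kb in E14.5 libraries, and 3.28 and 3.83 kb in E12.5 libraries. Both E14.5 libraries were below all other embryonic and stem-cell libraries in each of the 3.

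**Figure D4:**
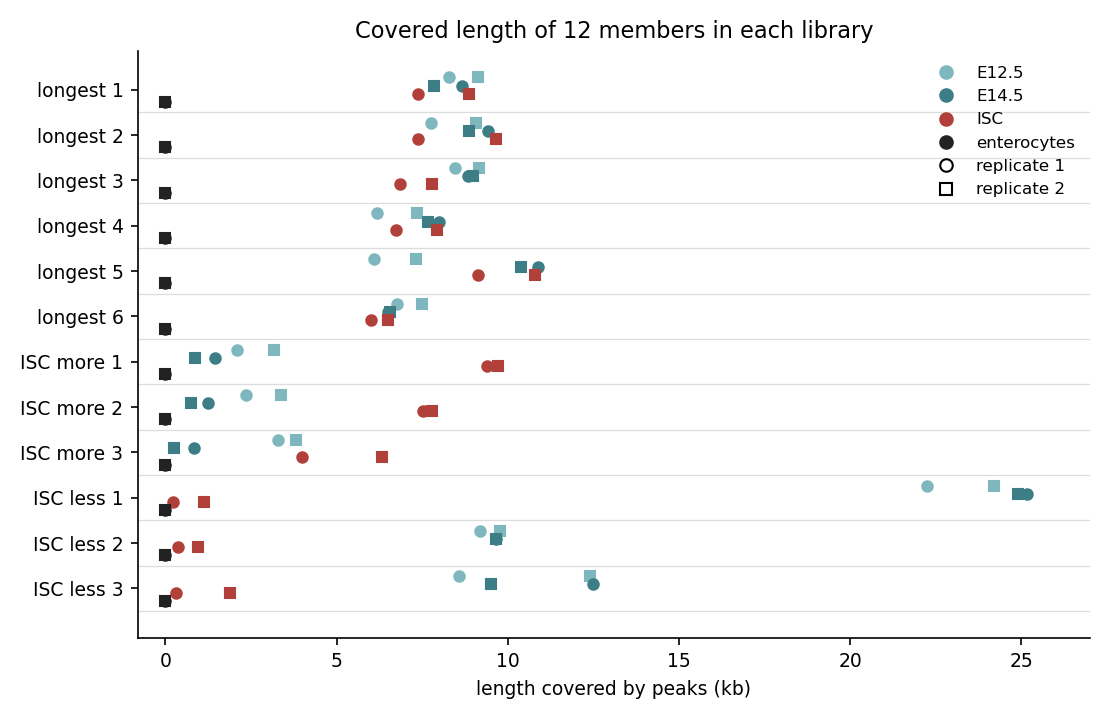
Length covered by peaks (kb, x axis) in each library for 12 of the regions (rows). They are the 6 longest by their smallest covered length over the 6 libraries (at least 100 kb apart), the 3 with the largest rise and the 3 with the largest drop in ISC against E14.5. Colours stand for the groups, circles for replicate 1 and squares for replicate 2. The first 6 rows hold 6.00 kb or more in all 6 embryonic and stem-cell libraries, while the first region of the drops has 22.3 to 25.2 kb in the embryo and 0.222 and 1.14 kb in ISC.

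Against E12.5, ISC had less covered length in 1468 of the 3491 regions (42.1%) and more in 334 (9.57%), with a median log2 change of −0.32. Over all regions tested 24.4% were lower and 23.0% higher, and the other regions of the 6 libraries had 12.8% lower and 13.8% higher. The 6-library fit gave 1306 lower (37.4%) and 297 higher (8.51%), where 15.8% of the other regions were lower and 15.0% higher, and 26.6% and 25.7% of all regions tested. The fit without scaling gave 689 lower (19.7%) and 316 higher (9.05%), where 19.1% of all were lower and 23.6% higher. In that fit 3.75% of the other regions of the 6 libraries were lower and 18.1% higher. By the deposited lengths, both ISC libraries lay below both E12.5 libraries in 1243 of the 3491 (35.6%, against 25.7% of all regions tested) and above them in 620 (17.8%, against 31.5%). Higher calls made up 18.5% of the calls, and 31.4% without scaling. This comparison shares the ISC libraries with the one before, so their counts are only set side by side: 796 regions were lower in ISC than in both stages in the 6-library fit (22.8%), 104 were higher than in both (2.98%), and 1700 were called in neither (48.7%). Of the other regions of the 6 libraries, 6.19% were lower than in both, 6.42% higher than in both and 66.2% called in neither, and of all regions tested 13.02%, 17.1% and 39.4%. The 8-library fit gave 948, 132 and 1476 of the 3491 (27.2%, 3.78% and 42.3%). In that fit the shares were 12.2%, 15.3% and 44.6% of all regions tested, and 4.78%, 6.11% and 70.9% of the other regions of the 6 libraries.

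The largest rise over E12.5 was on chromosome 2 from 71520952 to 71531093, with 8.31 and 10.1 kb in ISC, against 0.659 and 0.972 kb in E12.5 libraries (log2 change 2.65 ± 0.11 (SE, n = 2 each), adjusted p = 4.85e-05 by limma, and 0.000365 in the 6-library fit). At E14.5 this region had 2.32 and 2.25 kb, between the other groups. The next were on chromosome 10 from 42610117 to 42614701, with 3.64 and 4.44 kb in ISC, against 0.212 and 0.258 kb in E12.5 libraries, and on chromosome 11 from 8453982 to 8460963, with 5.47 and 6.98 kb in ISC, against 0.647 and 0.740 kb in E12.5 libraries. Both were also intermediate at E14.5, with 2.14 and 1.19 kb in the first and 1.81 and 1.31 kb in the second. Of the 3 largest drops, those on chromosomes 9 and 6 are the first 2 drops against E14.5 given above. The other, on chromosome 16 from 18172837 to 18188622, had 0.527 and 2.35 kb in ISC, against 14.53 and 15.8 kb in E12.5 libraries, and 7.27 and 6.74 kb in E14.5 libraries. The E14.5 libraries lay between the other groups, and their difference from E12.5 had an adjusted p of 0.0458 by limma, and of 0.0807 in the 6-library fit.

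For E14.5 against E12.5 the balance was not settled. Of the 3491 regions, 268 had more covered length at E14.5 (7.68%) and 329 had less (9.42%), where 13.8% of all regions tested were higher and 11.3% lower. The 6-library fit gave 184 and 225, where 6.58% of the other regions of the 6 libraries were higher and 2.32% lower, and 14.6% and 11.02% of all regions tested. Without scaling there were 179 higher and 51 lower regions, where 12.8% of all were higher and 7.97% lower, so that higher calls made up 77.8% in place of 44.9%, and the median log2 change was 0.08 in place of −0.09. By the deposited lengths, both E14.5 libraries lay above both E12.5 libraries in 1127 of the 3491 (32.3%, against 30.3% of all regions tested) and below them in 596 (17.1%, against 15.9%). A stricter peak threshold, −log10 q of 10, gave 287 higher and 204 lower, where 10.7% of all regions tested were higher and 6.54% lower. Without E12.5 replicate 1 there were 137 higher and 124 lower, where 10.3% of all were higher and 3.29% lower. Without E12.5 replicate 2 there were 359 and 302, where 16.4% and 4.68% of all were. Without E14.5 replicate 1 there were 133 and 183, where 6.63% and 10.99% of all were, and without E14.5 replicate 2 there were 102 and 122, where 6.46% and 8.90% of all were. Without enterocytes replicate 2 there were 180 and 218, where 13.9% and 10.54% of all were. The split over all regions thus moved with the library left out, as did that of the 3491.

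Single regions did differ between the stages. On chromosome 11 from 113113862 to 113118280, peaks covered 4.19 and 3.78 kb in E14.5 libraries, against 0.400 and 0.229 kb in E12.5 libraries (log2 change 2.26 ± 0.27 (SE, n = 2 each), adjusted p = 0.00252 by limma, and 0.00794 in the 6-library fit), and 0.718 and 2.13 kb in ISC. On chromosome 4 from 62135791 to 62140044, they covered 3.90 and 3.79 kb in E14.5 libraries, against 0.472 and 0.415 kb in E12.5 libraries, and 1.59 and 2.37 kb in ISC. These 2 regions were widest at E14.5. On chromosome 1 from 189722488 to 189726684, the 3.45 and 3.40 kb in E14.5 libraries, against 0.207 and 0.758 kb in E12.5 libraries, were followed by 3.53 and 4.14 kb in ISC.

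The largest drop was on chromosome 2 from 147861897 to 147867153, with 0.598 and 0.217 kb in E14.5 libraries, against 4.19 and 5.26 kb in E12.5 libraries, and 0.262 and 1.36 kb in ISC. The second was the region on chromosome 13 given above, which was wide again in ISC. The third, on chromosome 5 from 32723219 to 32727020, had 1.03 and 0.219 kb in E14.5 libraries, against 2.96 and 3.73 kb in E12.5 libraries, and 0.254 and 0.314 kb in ISC. Its call did not hold without E12.5 replicate 1 (log2 change −1.99, adjusted p = 0.0527 by limma).

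The regions lay in 2631 windows of 100 kb, and 2029 of these windows held a single one. Another member of the set lay within 10 kb of 773 of them (22.1%), against 30.8% for the regions of the embryonic stages alone and 35.3% for the regions of ISC alone, and the median gap was 64931 bp. Windows with 4 or more numbered 63 and held 283 of the regions.

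The 2 fullest windows, both on chromosome 11, held 8 each. In the window from 112900001 to 113000000, peaks of all regions covered 30.8 and 43.9 kb in E12.5 libraries, 47.8 and 40.4 kb in E14.5 libraries, 31.5 and 51.2 kb in ISC, and 0.794 and 0.234 kb in enterocytes. Of its 21 regions, 2 had any enterocyte peak, and both enterocyte libraries lay far below the other 6. In the window from 87200001 to 87300000, the lengths were 8.60 and 11.5 kb in E12.5 libraries, 9.49 and 7.88 kb in E14.5 libraries, 9.66 and 15.6 kb in ISC, and 1.90 and 2.08 kb in enterocytes, which kept peaks in 3 of 18 regions. There the regions lay within 87255988 to 87284586.

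Of the 2631 windows with one of these regions, 780 (29.6%) had no enterocyte peak at all, against 46.5% of the windows with a region of the embryonic stages alone and 24.4% of those with a region of ISC alone. None of the 3 sets has enterocyte peaks of its own, by definition, so these shares describe only what lies beside them. The one with the most, on chromosome 8 from 27900001 to 28000000, held 6 and had 20.2 and 29.0 kb in E12.5 libraries, 25.1 and 20.5 kb in E14.5 libraries, and 18.0 and 26.3 kb in ISC. On the X chromosome, the window from 11700001 to 11800000 held 5 and had 8.36 and 11.1 kb in E12.5 libraries, 10.6 and 8.60 kb in E14.5 libraries, and 6.54 and 9.37 kb in ISC. These windows without enterocyte peaks were picked out after their values were seen.

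By chromosome, the share of the regions of all 6 libraries that were off in enterocytes ran from 15.8% (chromosome 17) to 25.03% (chromosome 13) on the autosomes. On the X chromosome it was 29.2%, 128 of 439. Both adult groups were male and the embryos carry no sex label, and the part of sex in the X value was not tested.

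The median gap from the edge of a region to the nearest enterocyte peak was 20820 bp, against 40715 bp for the regions of the embryonic stages alone and 13204 bp for the regions of ISC alone. Of the 3491, 773 lay within 5 kb of an enterocyte peak (22.1%), 1724 within 20 kb (49.4%) and 510 farther than 100 kb (14.6%). Among the 17114 regions of all 6 libraries, the share off in enterocytes was 11.5% where another region held by both enterocyte libraries lay within 2 kb, and 37.7% where none lay within 100 kb. In the stronger part of these regions, above the median mean percentile, the shares were 0.563% and 5.19%, and in the weaker part 21.2% and 62.8%. The regions were not matched for strength within either part. These shares rest on the rule itself and were not tested.

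Neighbouring regions that enterocytes kept were set out by their distance to the chosen regions, a comparison chosen after the data had been seen. An enterocyte peak that reached one of the 3491 would have joined it and taken it out of the set. The rule therefore also acts on these neighbours, and its part in the values below was not tested. For this reason the values cannot show whether a change reached beyond the chosen regions. Among the regions of all 4 groups, limma called less covered length in enterocytes than in ISC in 147 of the 651 that lay within 5 kb of one of the 3491 (22.6%), and more in 55 (8.45%). Over all regions tested 21.6% were lower and 14.54% higher, and over all 12282 regions of all 4 groups 10.1% were lower and 17.2% higher. The share lower was 15.2% at 5 to 20 kb, 12.4% at 20 to 50 kb, 9.68% at 50 to 100 kb and 7.69% beyond 100 kb, and the share higher was 12.6%, 16.0%, 16.5% and 19.3% at those distances. Within 5 kb, the median covered length of the kept regions was 1156 and 1318 bp in enterocytes, against 2335 and 3055 bp in ISC. Beyond 100 kb it was 1405 and 1502 bp in enterocytes, against 1884 and 2350 bp in ISC. As deposited and not scaled to the library, the enterocyte lengths lay below those of ISC at both distances. On the scaled lengths that limma tested, the median log2 change was −0.12 within 5 kb and 0.13 beyond 100 kb.

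Taking all kept regions within 20 kb, 18.0% were lower in enterocytes, against 8.80% of the others. Without scaling the shares were 50.6% and 36.9%, where 29.0% of all regions tested were lower and 7.47% higher, with the median change over all tested regions at −0.26 on the log2 scale, and higher calls made up 0.564% of the calls near the regions in place of 38.02%. Without ISC replicate 1 they were 10.6% and 4.25%. The kept regions near the 3491 had a median percentile in the enterocyte lists of 72.0 within 5 kb and 79.5 beyond 100 kb, and in the ISC lists of 86.04 and 86.3. Regions close to each other can be parts of 1 broad domain, and the part of this in the difference was not tested.

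**Figure D5:**
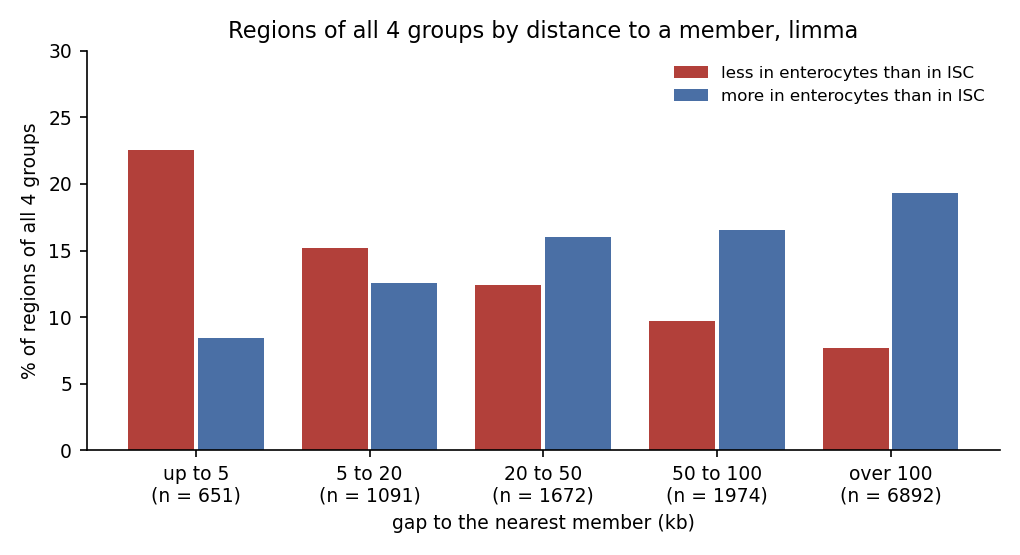
Percentage of the regions of all 4 groups called by limma with less (red) or more (blue) covered length in enterocytes than in ISC, by the gap to the nearest of the 3491 regions (x axis, kb, with the number of regions). The red bars are 22.6% within 5 kb and 7.69% beyond 100 kb, and the blue bars 8.45% and 19.3%.

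The summit of the strongest peak differed between E14.5 replicates by a median of 68 bp and between ISC replicates by 70 bp. Between ISC and E14.5 libraries the medians were 82 to 89 bp, between ISC and E12.5 libraries 105 to 119 bp, and between the E12.5 replicates 94 bp. Of the 3491 regions, 68.7 to 71.0% had ISC and E14.5 summits within 200 bp of each other, against 76.2 and 76.9% within the ISC and E14.5 pairs. In the regions of all 4 groups, too, ISC and E14.5 libraries differed by more than the replicates of either. The medians were 51 to 55 bp between ISC and E14.5 libraries, 43 bp between ISC replicates and 49 bp between E14.5 replicates.

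At the edge of the rule, 66 of the regions had only 207 bp of peak in the library where they were shortest. The first of these by position, on chromosome 1 from 3661775 to 3662618, had 0.544 and 0.638 kb in E12.5 libraries, 0.844 and 0.810 kb in E14.5 libraries, and 0.207 and 0.564 kb in ISC. The other 2 lay on the same chromosome, from 36121381 to 36122916 and from 75483402 to 75484871, with 0.207 kb in ISC replicate 1 each. Just outside the rule were the regions of all 6 libraries with a peak in 1 enterocyte library only, 259 in replicate 1 and 1082 in replicate 2. Those peaks were weak, with a median of 340 bp and the 20.0th percentile in replicate 1 and of 397 bp and the 26.4th percentile in replicate 2. The 3 with the shortest, on chromosome 1 from 66941691 to 66943587, on chromosome 13 from 49045234 to 49048074 and on chromosome 15 from 75843145 to 75846400, had 0.213 kb in enterocytes replicate 1. On the other side, 1515 regions off in enterocytes missed the set only for want of a peak in ISC replicate 1 and 625 only for want of one in E12.5 replicate 1, against 24 to 132 for each of the other 4 libraries.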

How the data were processed

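H3K27ac peak lists of 8 libraries were used, 2 per group. Per the submitters' processing notes, the tools were bcl2fastq 1.8.4, Bowtie 1.1.2, SAMtools 1.2 and MACS2, on build mm9. Per the file headers, the authors called peaks with MACS 2.1.0.20140616 in each library against its own input at a q-value of 0.05, keeping 1 tag per position and scaling the larger dataset to the smaller. The deposited values per peak are length in bp, pileup signal at the summit, fold enrichment and −log10 p and −log10 q. The last 3 kinds are the authors' scores, and depth and input act on them, so they served only for ranks within a list. Covered length also depends on depth, since deeper libraries can give more or wider peaks.

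Covered length per region was divided by the library's total covered length, brought back to bp, and tested as log2(value + 500 bp) with limma 3.58.1 (R 4.3.3) on all 8 libraries, with group as the only term and Benjamini-Hochberg adjustment. A log2 change on this scale understates changes of short regions. The fits were run on simulated data with known changes, and only the direction of those changes had to come out right. Because the rule sets the members to 0 in enterocytes, a fit of the 6 other libraries is given beside the main one. Other steps used Python 3.11.15 with pandas 2.3.3, NumPy 2.4.6 and SciPy 1.17.1. P-values measure only the spread between these libraries. The members, the rules and the lists were chosen with earlier results of these data known. Regions named are the 6 with the greatest smallest covered length (at least 100 kb apart), the 3 largest increases and decreases per comparison among called regions without overlap between groups, the 2 fullest 100 kb windows and the 3 nearest the boundary of the rule. Alternatives were other pseudocounts, filters, scalings, peak thresholds, distances and libraries left out. The gene lists and promoters were not used here, since the gene table given is of another build.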

Additional observations from a re-analysis of the deposited data

How the results depend on the processing

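The set held 2374 regions with −log10 q of at least 10, 2367 with 35614 peaks per library, 2891 with peaks merged within 1 kb, 3762 with 50% cover as presence and 3244 with no enterocyte peak within 1 kb, against 3491. It held 3567 to 5013 with 1 library left out. In ISC against E14.5, regions with more covered length numbered 127 without scaling, 124 at the stricter q and 109 to 222 with 1 library left out, and those with less numbered 631 without scaling and 627 to 1173 with 1 left out. In ISC against E12.5, those with less numbered 689 without scaling and 1109 to 1357 with 1 left out, and those with more 250 to 409. In E14.5 against E12.5, those with less numbered 51 without scaling, 204 at the stricter q and 122 to 413 with 1 left out, and those with more 102 to 359. With the replicate block the counts of more and less were 174 and 980, 299 and 1328, and 214 and 243 in the 3 comparisons. Of all regions tested, that fit called 15.3% higher and 18.6% lower, 22.2% and 23.2%, and 12.9% and 10.2%. Without scaling these shares were 14.9% and 17.0%, 23.6% and 19.1%, and 12.8% and 7.97%. At the stricter q they were 14.0% and 14.4%, 21.5% and 19.8%, and 10.7% and 6.54%. With 1 library left out the shares over all regions tested moved too. Differences between replicates correlated between groups at −0.143 to 0.13 over 53123 regions. With a single difference per group this cannot exclude animals or batches shared between groups, which the sample labels do not give. Kept regions within 20 kb were lower in enterocytes in 50.6% without scaling and 10.6 to 21.9% with 1 library left out. The share of the set near an enterocyte peak was 7.08% within 1 kb and 49.4% within 20 kb, against 22.1% within 5 kb. The most regions in a window were 8 at 50 kb and 9 at 200 kb, against 8 at 100 kb. Over 18 named results and 270 alternative values, 1 lost its call (adjusted p = 0.0527 by limma) and 0 reversed. The named results were picked as the largest called changes in these data, and some regions count in more than 1 comparison. Their calls therefore do not describe how stable the other regions are. The cause of the differences between settings was not tested. Gene assignment alternatives were not run.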
